A study of Mus musculus with 8 samples.

Results

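Heat shock chaperones of the cytosol, nucleus and mitochondria were examined by RNA sequencing in hepatocytes with and without the transcription factor subunit TAF2. The group comprised 40 genes, listed by symbol, among 24411 gene symbols in the table, and all 40 were present and passed the filter on low counts. They cover the HSF transcription factors, the HSP70, HSP110, HSP90 and small heat shock protein families, the J-domain and BAG partners of HSP70, the cytosolic chaperonin CCT and the mitochondrial chaperones. The rule that lists them uses no measured value. The samples were 4 libraries of hepatocytes from wild-type mice (label WT) and 4 from mice in which Taf2 was conditionally knocked out in hepatocytes (label TAF2 KO), all harvested 2 days after plating. The Cre driver, the deleted part of Taf2, the strain, age and number of animals, and whether libraries came from separate animals are unstated in the sources used here, so p-values measure the spread between libraries, which may be technical.

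Chaperones bind unfolded or partly folded proteins and help them fold, assemble, cross membranes or be degraded. HSP70 proteins hold short stretches of a client in cycles driven by ATP, which J-domain proteins start and nucleotide exchange factors (HSP110 and BAG proteins) end, and STIP1 hands clients on to HSP90. CCT folds actin and tubulin in a closed chamber, and HSPD1 with its lid HSPE1 forms such a chamber for proteins in mitochondria. Under heat or other protein damage, HSF1 binds heat shock elements, runs of the units GAA and TTC in alternation, and induces many of these genes, while constitutive members such as HSPA8 are abundant in unstressed cells. TAF2 belongs to TFIID, the complex that binds core promoters of genes read by RNA polymerase II.

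Taf2 itself, on chromosome 15, 55015131 to 55072152 (build mm10), stood at 42.5, 46.4, 45.1 and 42.2 CPM in wild-type replicates 1 to 4 and 13.9, 15.7, 13.4 and 12.7 CPM in knockout replicates 1 to 4. It fell from a mean of 44.04 ± 2.05 to 13.9 ± 1.26 CPM (SD over 4 libraries each; a log2 fold change of -1.66 with SE 0.0612 and edgeR adjusted p = 9.03e-15), and every library matched its label. Library totals ran from 18947059 to 22824568 counts in the wild type and from 20287023 to 23933589 in the knockout. Levels are given in CPM, counts relative to the TMM-scaled library total, and each fold change is knockout against wild type on the log2 scale with its standard error (SE). The labels call all samples hepatocytes. Marker genes were read beside all genes tested, of which 30.2% were higher and 31.2% lower. The 7 hepatocyte markers, Alb among them, (4 higher, 2 lower) summed to 45161 to 49014 CPM per wild-type library and 61878 to 68121 CPM per knockout library, and the 6 without Alb to 8881 to 9006 CPM (wild type) and 8694 to 9240.3 CPM (knockout). Markers of other liver cells were also read. The 10 macrophage markers summed to 86.7 to 116 CPM per wild-type library and 233 to 263 CPM per knockout library, with 10 of 10 higher. Cd68 made up 84.6% of the wild-type sum, and the other 9 summed to 14.2 to 16.1 CPM (wild type) and 73.8 to 80.3 CPM (knockout). The 8 endothelial markers summed to 42.3 to 48.3 CPM per wild-type library and 116 to 123 CPM per knockout library, with 7 higher of 7 tested. The 8 stellate cell markers summed to 65.3 to 69.6 CPM per wild-type library and 138 to 152 CPM per knockout library, with 7 of 8 higher. Reln made up 90.6% of the wild-type sum, and the other 7 summed to 5.64 to 7.31 CPM (wild type) and 42.2 to 45.8 CPM (knockout). Of the 6 cholangiocyte markers 2 were higher and 2 lower, with sums of 116 to 129 CPM per wild-type library and 153 to 181 CPM per knockout library, and Cftr was at 0 in all but 1 library. Of the 6 leukocyte markers Ptprc alone was tested and was higher, and the 6 summed to 0.0469 to 0.679 CPM per wild-type library and 0.951 to 1.14 CPM per knockout library, with Nkg7 at 0 throughout. In such bulk cultures a change in the number of cells of a type and a change in RNA per cell cannot be told apart.

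Heat shock elements were looked for in the promoters, since many genes of this group are known HSF1 targets. RefSeq promoter sequences (GRCm38.p6, 250 bases before to 50 after a start) were matched by symbol for 33 of the 40 genes, in 44 promoters. Hsf1, Hspa8, Hsp90aa1, Hsp90ab1, Cryab, Cct4 and Hspa9 had no entry. An element of 3 units, GAANNTTCNNGAA or its reverse complement TTCNNGAANNTTC, was found in 7 of the 44 promoters (15.9%) against 0.603% of all 32851 promoters, and these belonged to 5 genes. The 7 rest on 4 distinct stretches, since Dnajb6 and Hsph1 each hold theirs under 2 starts. Hspd1 and Hspe1, which lie head to head on opposite strands of chromosome 1, share theirs, read here once in each direction. The capitals mark the matching run and positions are counted from each start.
Hspd1, chr1:55088053-55088082, minus strand: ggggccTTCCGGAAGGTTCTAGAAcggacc
Hspe1, chr1:55088053-55088082, plus strand: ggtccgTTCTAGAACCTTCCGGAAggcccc
Dnajb6, chr5:29735844-29735873, plus strand: agctccgaGAATCTTCCGGAAcgctagacc
Chordc1, chr9:18292260-18292289, plus strand: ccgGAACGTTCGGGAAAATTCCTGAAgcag
Hsph1, chr5:149636279-149636308, minus strand: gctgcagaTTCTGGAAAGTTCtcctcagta

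The run in the Hspd1 and Hspe1 stretch holds 2 overlapping matches of the 3-unit element, between -144 and -127 of the nearer Hspd1 start and between -89 and -72 of the Hspe1 start. The run of Chordc1 holds 3 and spans its start, and that of Hsph1 lies after its start, in the first exon. Of these 5 genes Hspd1, Hspe1 and Dnajb6 were lower in the knockout (31.2% of all genes tested were) and Hsph1 and Chordc1 did not pass. The Dnajb6 call was lost in 2 alternative analyses. Of the 28 matched genes without the element 8 were higher, 8 lower and 12 did not pass, and the difference between the sets was not tested. The shorter motif of 2 units, GAANNTTC or TTCNNGAA (each its own reverse complement, and part of every 3-unit match), was present in 17 of the 44 promoters (38.6%) against 15.1% of all, in 15 genes of which 2 were higher, 6 lower and 7 did not pass. Of the 18 genes without it 6 were higher, 5 lower and 7 did not pass. Such a match describes letters in a window, and no binding was measured.

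The inducible HSP70 genes Hspa1a and Hspa1b are near copies, and their upstream sequences are shown because the likeness extends there. The 150 bases before each start were identical at 149 of 150 positions, with 1 element of 2 units in capitals.
Hspa1a, chr17:34972157-34972306, minus strand: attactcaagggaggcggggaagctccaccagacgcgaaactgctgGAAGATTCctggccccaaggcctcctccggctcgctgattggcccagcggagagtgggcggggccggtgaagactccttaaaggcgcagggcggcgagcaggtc
Hspa1b, chr17:34959239-34959388, minus strand: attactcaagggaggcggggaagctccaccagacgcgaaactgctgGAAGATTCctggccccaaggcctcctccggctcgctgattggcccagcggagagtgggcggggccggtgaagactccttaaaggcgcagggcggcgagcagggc

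Across the 40 genes, 11 were higher and 14 lower in the knockout at an edgeR adjusted p under 0.05, and 15 did not pass. The 25 that passed make 62.5%, beside 61.4% of all 12122 genes tested (30.2% higher and 31.2% lower), so the share that changed was near the background. The changes were mostly small. The median absolute log2 fold change was 0.13 over the group and 0.22 over all genes tested, and 17 of the 25 passing changes were under 0.3. The group and all genes tested were not matched for expression level, so these sizes are not compared at like levels. Changes of at least 0.3 that passed occurred in 8 of 40 genes (20%; 35.6% of all genes tested), and changes of at least 1 in 3 (Cryab, Hspa2 and Bag2; 7.5%, beside 9.5% of all genes tested). The signed median was -0.0044 for the group and -0.0035 for all genes tested. In 23 of the 40 (57.5%; 54.7% of all genes tested) the values of the 2 genotypes did not overlap.

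**Figure D1:**
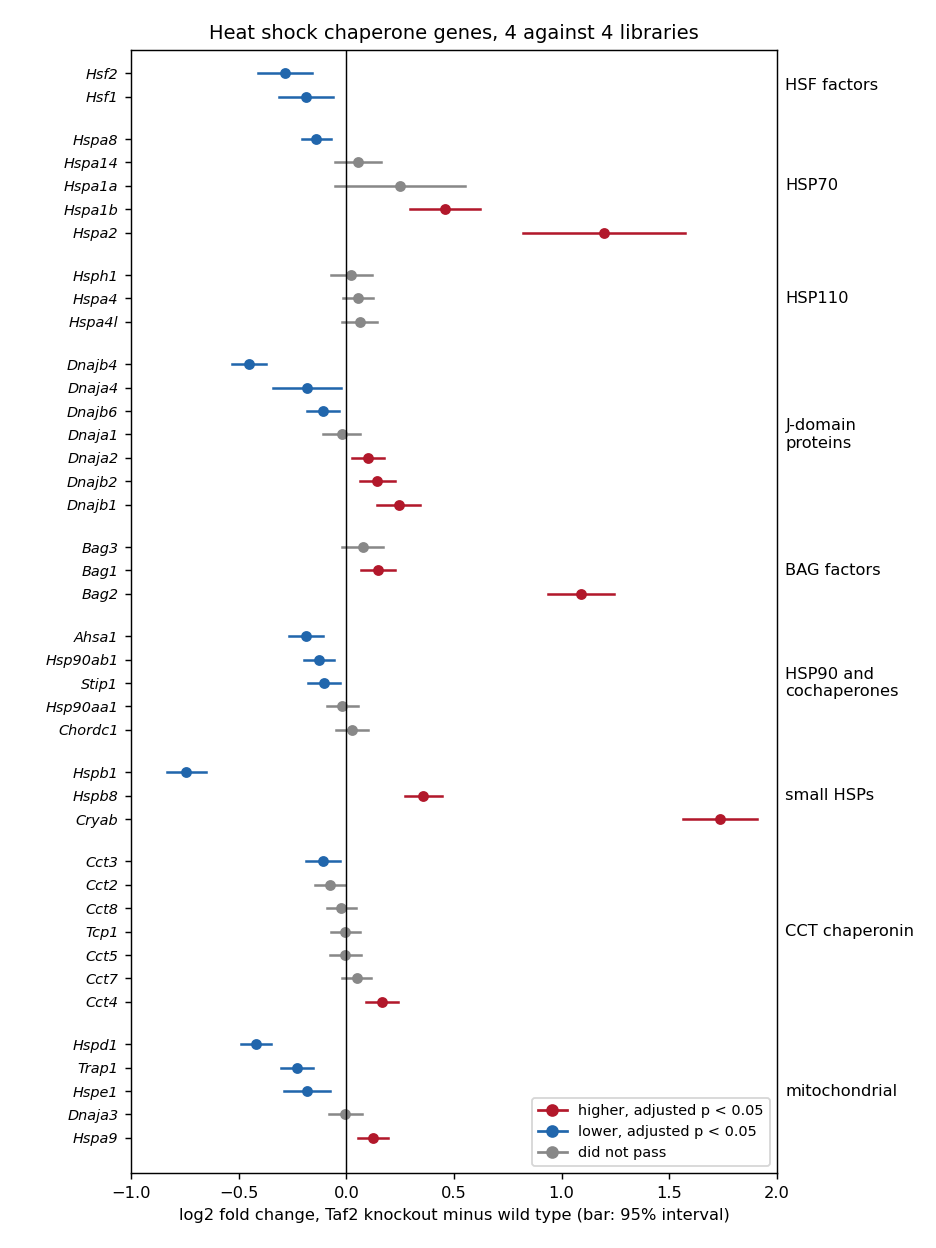
Log2 fold change of each of the 40 genes, knockout minus wild type, with its 95% interval, grouped by role; red genes were higher, blue lower (edgeR adjusted p under 0.05) and grey did not pass. Most points lie within 0.3 of 0, and Cryab, Hspa2, Bag2 and Hspb1 stand farthest out.

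**Figure D2:**
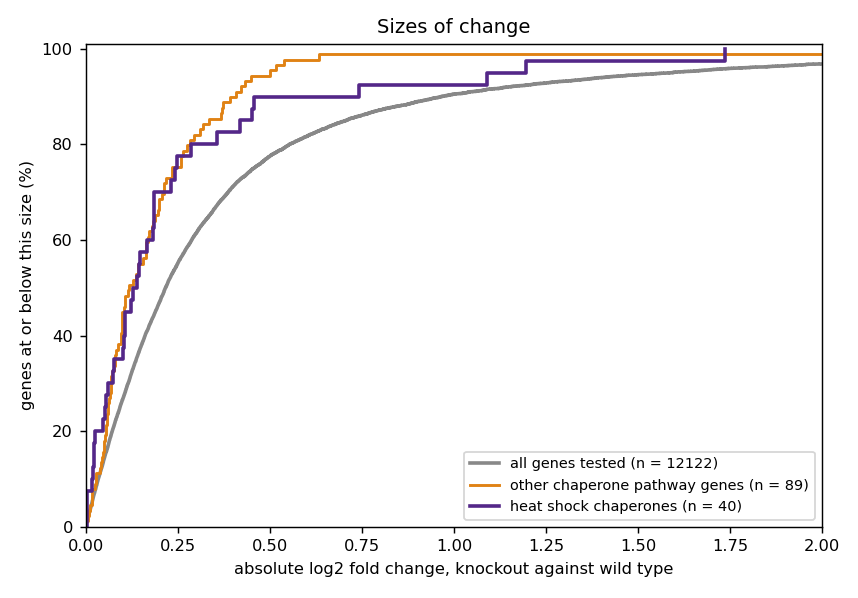
Share of genes (y axis, percent) whose absolute log2 fold change is at or below the value on the x axis, for the 40 chaperone genes, 89 other tested genes of the chaperone pathways and all 12122 genes tested. The chaperone curve lies above that of all genes, with medians of 0.13 and 0.22. The sets were not matched for expression level.

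Both HSF genes of the group were lower, as were 31.2% of all genes tested. Hsf1, the main inducer of the heat shock response, stood at 27.03, 24.98, 27.8 and 23.4 CPM in wild-type replicates 1 to 4 and 22.6, 22.2, 22.1 and 23.8 CPM in knockout replicates 1 to 4. Its values overlapped between the genotypes, with knockout replicate 4 above wild-type replicate 4, and it fell by 0.19 on the log2 scale (SE 0.0604, edgeR adjusted p = 0.0117). Hsf2, which acts in development and together with HSF1, stood at 27.2, 25.4, 26.05 and 24.3 CPM in wild-type replicates 1 to 4 and 19.7, 20.7, 21.1 and 23.1 CPM in knockout replicates 1 to 4 and fell from a mean of 25.7 ± 1.19 to 21.1 ± 1.41 CPM (a log2 fold change of -0.29 with SE 0.0599 and edgeR adjusted p = 0.000367), without overlap. Hsf4, known from lens development and outside the group, went the other way and rose from a mean of 8 ± 0.475 to 11.4 ± 0.365 CPM (a log2 fold change of 0.52 with SE 0.0737 and edgeR adjusted p = 4.49e-06). It was named after its value was seen.

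Of the 5 cytosolic HSP70 genes 2 were higher, 1 was lower and 2 did not pass (all genes tested: 30.2% higher, 31.2% lower). Hspa8, the constitutive cytosolic HSP70 and the most abundant gene of the group per length (1191 ± 24.7 CPM per kb of transcript in the wild type), stood at 2931, 2795, 2819.8 and 2857 CPM in wild-type replicates 1 to 4 and 2559, 2591, 2596 and 2603 CPM in knockout replicates 1 to 4. Every knockout library was below every wild-type library, and the level fell by 0.14 on the log2 scale (SE 0.0323, edgeR adjusted p = 0.00089). Hspa1b (chromosome 17, 34956436 to 34959238), an intronless stress-inducible gene, stood at 15.2, 14.4, 11.6 and 13.2 CPM in wild-type replicates 1 to 4 and 18.1, 18.1, 20.4 and 18.3 CPM in knockout replicates 1 to 4. It rose from a mean of 13.6 ± 1.57 to 18.7 ± 1.15 CPM (a log2 fold change of 0.46 with SE 0.0773 and edgeR adjusted p = 3.57e-05), with no overlap. Hspa1a (chromosome 17, 34969190 to 34972156) stood at 3.69, 2.96, 3.18 and 2.39 CPM in wild-type replicates 1 to 4 and 3, 3.6, 3.98 and 4.03 CPM in knockout replicates 1 to 4, overlapped between genotypes and did not pass (a log2 fold change of 0.25 with SE 0.144 and edgeR adjusted p = 0.14; 95% interval -0.05 to 0.55). Neither gene had whole counts in any library, as happens when RSEM divides reads that fit more than 1 gene, so their split is uncertain, and they were the only 2 genes of the group with values that were not whole. Summed, the pair stood at 18.9, 17.4, 14.8 and 15.6 CPM in wild-type replicates 1 to 4 and 21.1, 21.7, 24.4 and 22.4 CPM in knockout replicates 1 to 4, and as 1 feature it rose by 0.42 (log2 scale; edgeR adjusted p = 5.24e-05). Even in the knockout these inducible genes stayed low, at 6.68 ± 0.409 CPM per kb for Hspa1b and 1.23 ± 0.159 for Hspa1a, beside 1081 ± 8.16 for Hspa8.

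Hspa2, an HSP70 best known from spermatogenesis, was the scarcest gene of the group and had 21 to 27 counts per wild-type library and 41 to 66 per knockout library. It stood at 0.954, 1.31, 1.1 and 1.12 CPM in wild-type replicates 1 to 4 and 2.79, 2.85, 2.68 and 1.94 CPM in knockout replicates 1 to 4 and rose by 1.20 on the log2 scale (SE 0.181, edgeR adjusted p = 9.48e-06). Knockout replicate 4 was the lowest of its group and still above every wild-type library. Hspa14, a ribosome-associated HSP70, did not pass (log2 fold change 0.054, edgeR adjusted p = 0.383). The HSP110 genes Hspa4, Hspa4l and Hsph1, whose proteins reset HSP70 by nucleotide exchange, did not pass either. Their log2 fold changes lay between 0.023 and 0.062, and their 95% intervals ran from -0.072 to 0.14. Hspa4, with the highest CPM of them, stood at 455, 475, 463 and 464 CPM in wild-type replicates 1 to 4 and 479.8, 477, 498 and 473 CPM in knockout replicates 1 to 4, with overlap between the genotypes.

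J-domain proteins, which bring clients to HSP70 and start its ATPase cycle, split evenly, with 3 of 7 higher and 3 lower. Over all genes tested 30.2% were higher and 31.2% lower. Dnajb4, a relative of Dnajb1, had the largest change, from 66.6, 65.6, 63.6 and 65.7 CPM in wild-type replicates 1 to 4 to 46.9, 48.6, 45.6 and 50.1 CPM in knockout replicates 1 to 4 (a log2 fold change of -0.45 with SE 0.0387 and edgeR adjusted p = 3.45e-09). All knockout libraries were below all wild-type libraries. Dnajb1, the HSF1-induced partner of HSP70 in the heat shock response, stood at 57.4, 52.1, 53.97 and 51.5 CPM in wild-type replicates 1 to 4 and 62.1, 58.3, 66.4 and 67.8 CPM in knockout replicates 1 to 4 and rose by 0.24 (log2 scale; edgeR adjusted p = 0.000178). Dnajb2 rose by 0.14 (log2) and Dnaja2 by 0.10, and Dnajb6, an inhibitor of aggregation, fell by 0.11 on the log2 scale. Dnaja4, a relative of Dnaja1, fell by 0.18 (log2 scale; edgeR adjusted p = 0.0416), but it missed the threshold in 12 of 18 alternative analyses, at values up to 0.156. Dnaja2 missed it without wild-type replicate 3 (0.0818) or knockout replicate 3 (0.0625), and Dnajb6 without knockout replicate 1 (0.0655). Dnaja1, with the highest CPM of the 7, stood at 283, 283, 272 and 273 CPM in wild-type replicates 1 to 4 and 267, 284, 254 and 292 CPM in knockout replicates 1 to 4 and did not pass (edgeR adjusted p = 0.683). Its knockout values in replicates 2 and 4 were above those in replicates 1 and 3.

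Of the BAG proteins, which release clients from HSP70, Bag2 changed most. Bag2 (chromosome 1, 33745484 to 33757795), whose product also restrains the ubiquitin ligase CHIP, stood at 35.3, 33.6, 37.3 and 40.7 CPM in wild-type replicates 1 to 4 and 83.1, 70.1, 90.1 and 68.5 CPM in knockout replicates 1 to 4. It rose from a mean of 36.7 ± 3.04 to 77.96 ± 10.4 CPM (a log2 fold change of 1.09 with SE 0.0738 and edgeR adjusted p = 9.54e-11), a rise larger than the spread among the knockout libraries, in which replicates 1 and 3 were above replicates 2 and 4. This split of the knockout libraries was not particular to Bag2. Over all genes tested, deviations from the knockout mean correlated at -0.117 for replicates 1 and 3 and -0.165 for 2 and 4. The other pairs were at -0.475 to -0.365. Bag1 rose by 0.15 (log2 scale; edgeR adjusted p = 0.00214). Bag3, an HSF1 target that couples HSP70 and HSPB8 to autophagy, stood at 95.5, 94.7, 90.8 and 91.97 CPM in wild-type replicates 1 to 4 and 98.8, 88.8, 107 and 97.9 CPM in knockout replicates 1 to 4 and did not pass (log2 fold change 0.075, edgeR adjusted p = 0.157). Without knockout replicate 2, the lowest of its group, Bag3 passed, at 0.0137.

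Of the 5 genes of the HSP90 system 3 were slightly lower (31.2% of all genes tested were lower) and 2 did not pass. Hsp90ab1, the constitutive cytosolic HSP90, stood at 2291, 2210.1, 2258 and 2275 CPM in wild-type replicates 1 to 4 and 2069.7, 2007, 2042 and 2149 CPM in knockout replicates 1 to 4 and fell by 0.13 on the log2 scale (SE 0.0337, edgeR adjusted p = 0.00267), with no overlap. The inducible form Hsp90aa1 stood at 1179, 1200.4, 1192 and 1203 CPM in wild-type replicates 1 to 4 and 1142, 1222, 1131 and 1219.7 CPM in knockout replicates 1 to 4 and did not pass (edgeR adjusted p = 0.68), and like Dnaja1 its knockout values were higher in replicates 2 and 4 than in 1 and 3. The count ratio of Hsp90ab1 to Hsp90aa1 was 1.89 ± 0.0419 in the wild type and 1.76 ± 0.0784 in the knockout. Among the cochaperones Ahsa1, which activates the HSP90 ATPase, fell by 0.19 (log2 scale; edgeR adjusted p = 0.000273) and Stip1, which links HSP70 to HSP90, by 0.10 (0.0158). The Stip1 call was lost without wild-type replicate 1 (0.0548) or knockout replicate 1 (0.083). Chordc1, an HSP90-binding protein gene, did not pass (log2 fold change 0.026).

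The 3 small heat shock proteins, which hold unfolded proteins without ATP, all changed (61.4% of all genes tested did), in opposite directions. Cryab (chromosome 9, 50751325 to 50756636), which encodes αB-crystallin, stood at 4.56, 4.18, 4.49 and 4.36 CPM in wild-type replicates 1 to 4 and 13.5, 15.1, 15.6 and 14.4 CPM in knockout replicates 1 to 4. It rose from a mean of 4.4 ± 0.165 to 14.7 ± 0.908 CPM (a log2 fold change of 1.74 with SE 0.0815 and edgeR adjusted p = 3.43e-13), the largest change of the 40 genes, and the knockout values were all at least 13.5 CPM against at most 4.56 in the wild type. Hspb8 (chromosome 5, 116408491 to 116422864), the partner of BAG3, stood at 308, 295, 279.7 and 302 CPM in wild-type replicates 1 to 4 and 385, 359.7, 405 and 368 CPM in knockout replicates 1 to 4 and rose from a mean of 296 ± 12.3 to 379.5 ± 19.8 CPM (a log2 fold change of 0.36 with SE 0.0412 and edgeR adjusted p = 2.73e-07), without overlap. Hspb1 (chromosome 5, 135887919 to 135889563), the mouse HSP25 that also stabilises actin filaments, stood at 800.4, 701, 719.9 and 733 CPM in wild-type replicates 1 to 4 and 442, 423, 433 and 468 CPM in knockout replicates 1 to 4. It fell from a mean of 739 ± 43.4 to 441 ± 19.4 CPM (a log2 fold change of -0.74 with SE 0.0427 and edgeR adjusted p = 7.60e-12), the largest fall of the 40 genes, with no overlap. The count ratio of Hspb1 to Hspb8 was 2.49 ± 0.109 in the wild type and 1.17 ± 0.0829 in the knockout.

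**Figure D3:**
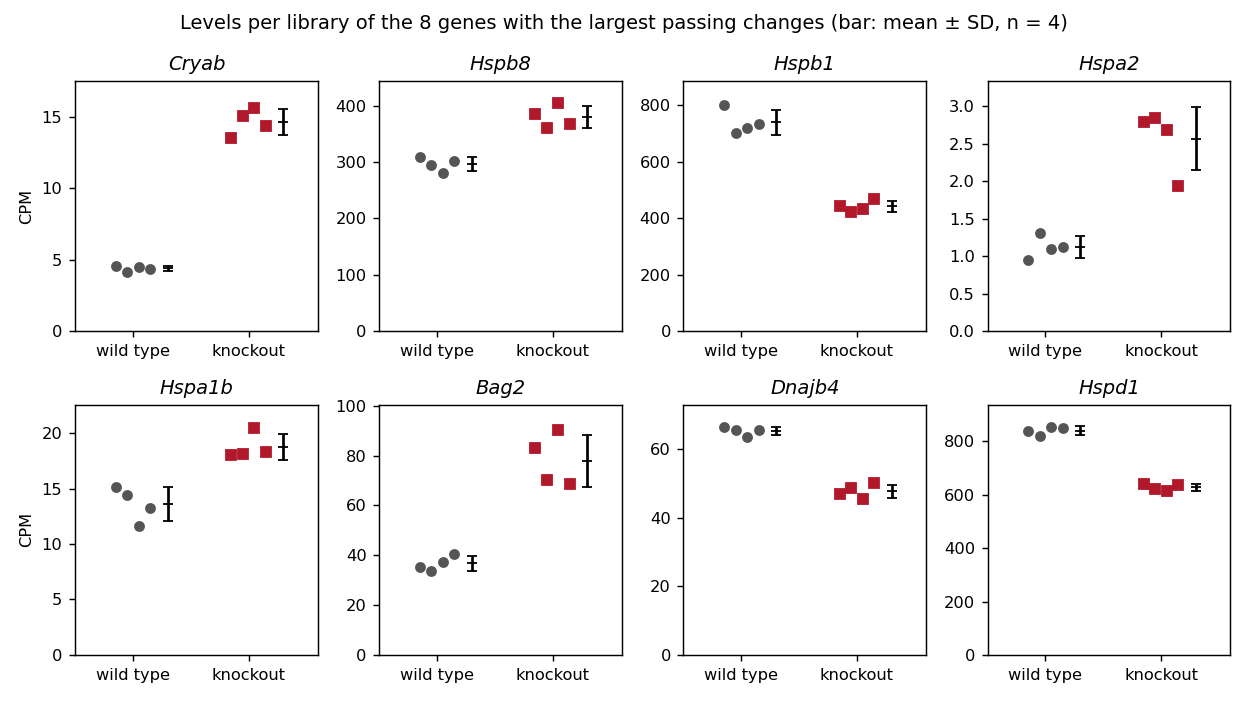
CPM (y axis, from 0) of the 8 genes whose passing log2 fold change was at least 0.3 in size, for each wild-type library (circles) and knockout library (squares), with the mean ± SD of 4 beside them. In none of the 8, chosen for the size of their change, do the genotypes overlap (54.7% of all genes tested do not). Cryab, Hspb8, Hspa2, Hspa1b and Bag2 are higher and Hspb1, Dnajb4 and Hspd1 lower in the knockout.

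Cryab and Hspa2 were below 5 CPM in every wild-type library and were higher in the knockout, as were 30.2% of all genes tested. Macrophage, endothelial and stellate cell markers were also higher in the knockout. Cryab is also expressed by stellate cells, and Hspb2, which lies head to head with Cryab on the opposite strand and overlaps it by 1030 annotated bases, had 0 or 1 count per wild-type library and 3 to 8 per knockout library and was not tested. The 7 stellate cell markers that passed rose by between 0.72 (Reln, with the highest CPM of them) and 3.55 (Rgs5) on the log2 scale. Des, which encodes desmin, stood at 0.301 ± 0.213 CPM (wild type) and 0.59 ± 0.116 CPM (knockout) and did not pass (edgeR adjusted p = 0.0514). The part of such cells in the rises of Cryab, Hspa2 and Bag2 was not tested.

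Of the 7 subunit genes of the cytosolic chaperonin CCT 1 was higher, 1 was lower and 5 did not pass. The shares over all genes tested were 30.2% higher and 31.2% lower. The 7 (Tcp1, Cct2, Cct3, Cct4, Cct5, Cct7 and Cct8) summed to 2449, 2334, 2369 and 2432 CPM in wild-type replicates 1 to 4 and 2416, 2355, 2389.6 and 2411 CPM in knockout replicates 1 to 4, which overlapped. Cct5, with the highest CPM of them, stood at 441, 413, 433 and 443 CPM in wild-type replicates 1 to 4 and 430.2, 429, 425 and 441 CPM in knockout replicates 1 to 4 (edgeR adjusted p = 0.929). Cct4 was higher, at 284, 262, 264 and 273 CPM in wild-type replicates 1 to 4 and 308, 297, 303 and 307 CPM in knockout replicates 1 to 4 (a log2 fold change of 0.17 with SE 0.0355 and edgeR adjusted p = 0.000412), with no overlap. Cct3 fell by 0.11 on the log2 scale (edgeR adjusted p = 0.0172), with overlap, and missed the threshold without wild-type replicate 1 (0.0751) or knockout replicate 2 (0.0537). The other 5 did not pass, and their 95% intervals ran from -0.15 (Cct2) to 0.12 (Cct7). Cct2 came closest (edgeR adjusted p = 0.0597), with all knockout values below all wild-type values, and passed without wild-type replicate 2 (0.0455). Per length the subunits lay between 109 (Cct4) and 233 (Cct5) CPM per kb in the wild type. Cct6a, a further subunit outside the group, stood at 258 ± 4.68 CPM (wild type) and 259.8 ± 3.24 CPM (knockout) (edgeR adjusted p = 0.851).

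Of the 5 mitochondrial genes 1 was higher, 3 were lower and 1 did not pass (all genes tested: 30.2% higher, 31.2% lower). The folding chamber genes Hspd1 and Hspe1 and also Trap1 were lower, and the import HSP70 gene Hspa9 was higher. Hspd1 (chromosome 1, 55077835 to 55088243), which encodes the chaperonin known as HSP60, stood at 838, 821, 855 and 849.7 CPM in wild-type replicates 1 to 4 and 642, 619.99, 615 and 638 CPM in knockout replicates 1 to 4. It fell from a mean of 841 ± 15.2 to 629 ± 13.04 CPM (a log2 fold change of -0.42 with SE 0.0328 and edgeR adjusted p = 8.86e-10), with no overlap. Hspe1 (chromosome 1, 55088132 to 55091307), its lid, stood at 166, 137, 147 and 158 CPM in wild-type replicates 1 to 4 and 131, 127, 134 and 143 CPM in knockout replicates 1 to 4 and fell by 0.18 (log2 scale; SE 0.0512, edgeR adjusted p = 0.004), with wild-type replicate 2 below knockout replicate 4. The annotated genes overlap by 112 bases on opposite strands, and the stretch printed above lies within the annotated span of Hspd1 and before that of Hspe1. The count ratio of Hspd1 to Hspe1 was 5.56 ± 0.43 in the wild type and 4.71 ± 0.213 in the knockout. This ratio, the Hspb1 to Hspb8 ratio and the Hsp90ab1 to Hsp90aa1 ratio were chosen after their values were seen and are given as descriptions. Exact permutation tests of these ratios gave p = 0.0286 each, the smallest possible here, and because of that choice are not used as support. Hspa9, the mitochondrial HSP70 that pulls proteins through the inner membrane, stood at 958, 913, 942 and 949 CPM in wild-type replicates 1 to 4 and 1022, 1029, 1052 and 998 CPM in knockout replicates 1 to 4 and rose by 0.12 (log2 scale; SE 0.033, edgeR adjusted p = 0.00282). Trap1, the mitochondrial HSP90, fell from a mean of 136 ± 4.01 to 116 ± 2.24 CPM (a log2 fold change of -0.23 with SE 0.0355 and edgeR adjusted p = 1.16e-05), and the J-domain gene Dnaja3 did not pass (edgeR adjusted p = 0.92).

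Levels differed far more between the genes than between the genotypes. In the wild type 16 of the 40 genes exceeded 100 CPM per kb of transcript. Hspa8 led at 1191 ± 24.7, followed by Hsp90ab1 at 896 ± 13.9 and Hspb1 at 818 ± 48.03 (SD, n = 4). Hsp90aa1 (364 ± 3.28) and Hspd1 (347 ± 6.27) came next. In the knockout Hspb1 (489 ± 21.5) kept that rank. At the low end were Hspa2 at 0.444 ± 0.0583 and Hspa1a at 1.03 ± 0.181 CPM per kb. The 40 genes together took 13706 to 14247 CPM per wild-type library and 13047 to 13362 CPM per knockout library. Libraries of a genotype agreed closely, with a median coefficient of variation of 3.20% in the wild type and 3.18% in the knockout.

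**Figure D4:**
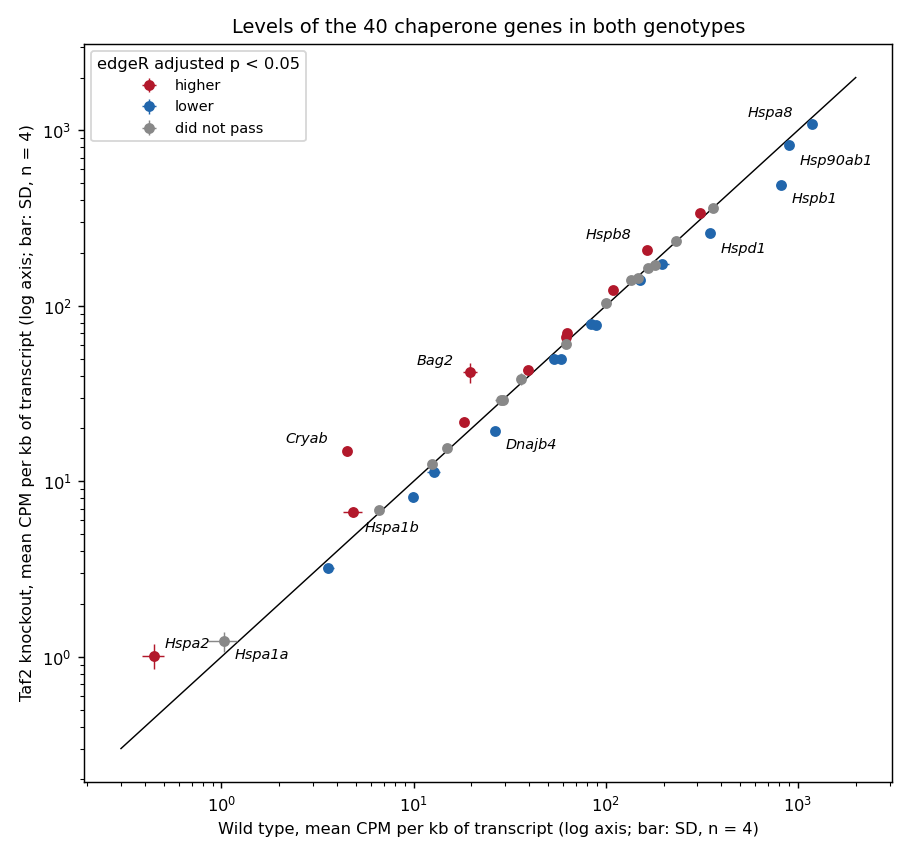
Mean level of each of the 40 genes per kb of transcript in the wild type (x, log axis) and the knockout (y, log axis), with SD bars (n = 4) and the line of equal levels. Hspa8 at 1191 and Hspa2 at 0.444 CPM per kb in the wild type mark the ends; Cryab, Bag2 and Hspa2 lie farthest above the line.

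Other genes of the chaperone network were then read, from 6 lists with 97 genes, of which 89 were tested, 28 were higher and 18 lower (median absolute log2 fold change 0.12). The 46 that passed make 51.7% of those tested, beside 61.4% of all genes tested, with 31.5% higher and 20.2% lower beside 30.2% and 31.2%. Of 20 further HSP90 cochaperones 6 were higher and 3 lower (median 0.045). Ppp5c, a phosphatase bound to HSP90, fell from a mean of 62.9 ± 1.15 to 50.7 ± 1.06 CPM and Fkbp4, an immunophilin of steroid receptor complexes, from a mean of 193 ± 7.14 to 161 ± 3.76 CPM. Cdc37l1 rose by 0.21 (log2) and Ptges3, the p23 cochaperone, by 0.18. Among 19 tested partners of HSP70, 6 were higher and 5 lower (median 0.073). Dnajc21, a J-domain protein of ribosome assembly, rose from a mean of 51.1 ± 2.76 to 67.6 ± 3.58 CPM and Bag6 by 0.20, while Hspbp1, an HSP70 exchange factor, fell by 0.21 and Bag4 by 0.30 on the log2 scale. Dnajc5, with the highest CPM of that list, fell from a mean of 411 ± 3.45 to 379 ± 7.29 CPM.

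Prefoldin, which delivers actin and tubulin to CCT, and other CCT partners were higher in 6 of 18 tested cases and lower in 2 (median 0.063). These make 33.3% and 11.1%, beside 30.2% higher and 31.2% lower over all genes tested. Pdrg1 rose by 0.33 (log2) and Txndc9 by 0.26, and the prefoldin gene Pfdn2 fell by 0.23 and the tubulin cofactor gene Tbcd by 0.19 on the log2 scale. Of 19 genes of the mitochondrial import motor and proteases 3 were higher and 7 lower (median -0.055). These make 15.8% and 36.8%, beside the same shares over all genes tested. The protease gene Htra2 fell from a mean of 19.4 ± 1.03 to 13.3 ± 0.723 CPM and Dnlz, which keeps HSPA9 soluble, from a mean of 46.5 ± 1.53 to 35.5 ± 0.845 CPM. The protease gene Yme1l1 rose by 0.18 (log2). Lonp1, the matrix protease, with the highest CPM of this list, rose by 0.10 (log2 scale; edgeR adjusted p = 0.02), which was lost without wild-type replicate 2 (0.0773) or 4 (0.0519).

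Of 7 further small heat shock protein genes 3 were tested. Hspb6, the HSP20 gene, was lower, at 39.6, 40.4, 38.9 and 36.1 CPM in wild-type replicates 1 to 4 and 24.8, 27.4, 22.4 and 25.5 CPM in knockout replicates 1 to 4 (a log2 fold change of -0.63 with SE 0.0584 and edgeR adjusted p = 1.09e-08), as Hspb1 was, and the other 2 did not pass. In the list of other HSF-related genes 7 of 10 were higher (30.2% of all genes tested) and 0 lower (median 0.40). The list was written with earlier results of these data known, so this share is a description and no test. One of the 7, Ubb, had values that were not whole in all 8 libraries. Zfand2a, an arsenite-inducible gene and HSF1 target whose product binds the proteasome, stood at 53.8, 54.9, 53.2 and 53.9 CPM in wild-type replicates 1 to 4 and 72.6, 76.4, 80.1 and 76.4 CPM in knockout replicates 1 to 4 and rose by 0.50 (log2 scale; edgeR adjusted p = 3.68e-10). Sqstm1, the autophagy receptor p62, rose from a mean of 1273 ± 48.8 to 1645 ± 40.9 CPM and had the highest CPM of the list. Serpinh1, the collagen chaperone HSP47, rose from a mean of 0.869 ± 0.191 to 4.94 ± 0.607 CPM (a log2 fold change of 2.49 with SE 0.168 and edgeR adjusted p = 8.88e-11). The collagen gene Col3a1, among other stellate cell markers, was also higher in the knockout, at 0.603 ± 0.135 CPM (wild type) and 3.64 ± 0.351 CPM (knockout). The part of stellate cells in the rise of Serpinh1 was not tested.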

How the data were processed

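Per the labels, total RNA was made into Illumina TruSeq libraries and read in 2 rounds of sequencing. Values are expected counts per gene as deposited by the authors, made with RSEM on mm10 per the submitters' processing notes. The aligner, versions and strand setting are unstated in the sources used here, so reads of overlapping antisense genes cannot be told apart. Of 16 value columns, 8, all with set2 in their names, matched the samples' library names. The other 8, without set2 in their names, matched no sample and were not used. Whether the counts used cover both rounds of sequencing was not established. Counts were rounded, filtered with edgeR's filterByExpr (minimum count 10, total 15), TMM-scaled and tested by the edgeR quasi-likelihood method over all 12122 genes kept, with Benjamini-Hochberg adjustment and a threshold of 0.05 (R 4.3.3, edgeR 4.0.16, limma 3.58.1, DESeq2 1.42.0). The fit was tested on simulated data. Library totals were 18947059 to 23933589 counts, and replicates differed by more than sampling noise (chi-square per degree of freedom 3.16 to 8.6). Levels per kb divide CPM by the mean length of the GENCODE M21 transcripts matched to the table's RefSeq transcripts. Coordinates are from that annotation (mm10). The genes and lists were chosen with earlier results of these data known. Values in every library are given for passing genes of at least 0.3 and the gene with the highest CPM of each role; other genes shown library by library were chosen after their values were seen. From each further list the 2 called genes of lowest adjusted p per direction, and that with the highest CPM, are named. Alternatives were other scalings, tests and filters, thinning, a replicate block, summing Hspa1a with Hspa1b, and leaving out each library.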

Additional observations from a re-analysis of the deposited data

Results flagged for a closer look

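Each of the 40 genes was checked in each genotype for a library standing apart from the other 3, by the gap to its nearest neighbour over the whole range (Dixon's test). Of 80 such groups 3 passed its 95% critical value, and chance alone passes about 1 in 20. Hspa1b in knockout replicate 3 was the highest, at 20.4 CPM, beside 18.1 to 18.3 in the other 3 (gap over range 0.89). Dnaja4 in knockout replicate 1 was the lowest, at 8.8 CPM, beside 9.76 to 9.89 in the other 3 (gap over range 0.877). Bag1 in wild-type replicate 1 was the highest, at 86.99 CPM, beside 81.5 to 82.1 in the other 3 (gap over range 0.888). The Hspa1b and Bag1 calls held without these libraries, at edgeR adjusted p = 0.000142 and 0.00114, and the Dnaja4 call did not, at 0.156.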

How the results depend on the processing

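Over 18 alternatives, 20 of the 25 passing genes kept their call and direction in every alternative that tested them (Hspa2 was not kept by the stricter filter). Of the 15 others, 4 passed in at least 1, if Hspa1a is counted, which passed only as a sum with Hspa1b and never by itself. Calls lost were those of Dnaja4 (12 alternatives), Dnaja2, Stip1 and Cct3 (3 each) and Dnajb6 (2). Calls gained by single genes were those of Cct2 (4), Hspa4 and Bag3 (1 each). With upper-quartile scaling Dnajb6, Stip1 and Cct3 had adjusted p = 0.0534, 0.0631 and 0.0649, and Hspa4 passed at 0.0487. With library totals alone Dnaja2 had 0.0868 and Cct2 0.0141. Upper-quartile scaling moved the median log2 fold change of the group to 0.0195 and of all genes to 0.0204, and library totals alone to -0.0321 and -0.0312. DESeq2 called 11 genes higher and 13 lower, and limma-voom 11 and 15. Leaving out 1 library gave 10 to 12 higher and 11 to 15 lower, over all genes 3491 to 3626 and 3483 to 3663, and a median of the group from -0.011 to 0.015. Replicate numbers are shared by the genotypes but did not pair the libraries: deviations of same-numbered libraries correlated across genes at -0.0454 to 0.0244. With a replicate block 11 genes were higher and 14 lower, as without it, though Dnaja4 did not pass (0.0586) and Cct2 did (0.048). At this depth Hspa2, with 21 to 66 counts per library, had the widest interval of the 40 genes, 0.82 to 1.57.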
